A study of Ostrinia nubilalis with 6 samples.

Results

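In whole guts of European corn borer (Ostrinia nubilalis) larvae, 143 of the 12972 gut probes on a custom Agilent array had at least a 3-fold higher signal on a diet with Cry1Ab protoxin than on the protoxin-free diet, without overlap between the pools of the diets. These probes fell into 53 overlap groups, sets of probes joined where 20 or more bases in a row are the same. The median difference over the 143 probes was 2.38 on the log2 scale, a 5.19-fold higher signal on protoxin, and the largest was 6.55. The probes were chosen by the measured difference between the diets itself, so all values of that difference below describe the chosen probes and test nothing. In the deposited log2 values, the protoxin mean had to exceed the control mean by 1.585 or more, the lowest protoxin pool had to lie above the highest control pool, and the protoxin mean had to be at -4 or more relative to the 75th percentile of the array. Probes in groups of more than 10, and probes with the serine protease motif GDSGG or TAAHC in a forward reading frame, were left out. No other serine protease sequence was searched for, so the set may still hold probes of such genes. Of 248 probes past the difference, 195 had no overlap between the diets, 153 of these also had the required level, and 10 were then lost to a large group and 0 to the motifs.

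All larvae were of the Bt-susceptible Lee strain, in the third instar, and had been starved for 24 h. The control group was then kept for 6 h on artificial food free of protoxin. The protoxin group spent equally long on food to which Cry1Ab had been added at 0.25 µg/mL. The paper reports that larvae quit eating once they had taken in protoxin, so the groups may also have differed in food intake. It proposes lower intake as the probable cause for most of its metabolic transcripts that fell. Whether intake contributed to the differences given below was not tested. Each sample was the RNA of 5 pooled guts on 1 single-color array, so that n = 3 pools per diet, and the values of single larvae were not seen. The protoxin had been dissolved in a carbonate buffer, and whether the control diet held that buffer is not given in the sources used here. A whole gut holds several cell types and its contents, and in such pooled tissue a higher share of a cell type and more RNA per cell cannot be told apart.

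Cry1Ab is a crystal protein of the bacterium Bacillus thuringiensis and the insecticidal protein of many Bt crops. A caterpillar dissolves the crystal in its alkaline midgut, and serine proteases of the gut trim the protoxin to the active toxin. The toxin binds proteins on the brush border of midgut cells, among them cadherin, aminopeptidase N, alkaline phosphatase and ABC transporters, and inserts into the membrane as a pore. The array was designed on expressed sequence tags (ESTs), short reads of transcripts, from the larval gut of the same species, usually with several probes per transcript. The files name each probe by a number only and pair it with no gene. The probe sequences were not compared with those of known genes. No role is therefore stated for a probe, and the tissue label was not checked against marker genes. Each group is called here by its first probe.

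The sequences below are the probes on which the results turn, each 60 bases long and printed as the array files give it. The pair ECB_Gut 4493 and ECB_Gut 4494 had the largest rise. Capitals mark the 30 bases that both hold, and this stretch contains an inverted repeat with a perfect stem of 8 bases, a feature of 2 of the 143 probes (1.4%) and of 191 of all gut probes (1.47%), for stems of 8 bases on loops of 3 to 10.
ECB_Gut 4493: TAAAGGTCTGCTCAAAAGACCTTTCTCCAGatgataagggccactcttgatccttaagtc
ECB_Gut 4494: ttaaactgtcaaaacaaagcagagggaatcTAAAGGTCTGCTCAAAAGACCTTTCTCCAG

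ECB_Gut 11118, ECB_Gut 11119 and ECB_Gut 11122 were, like that pair, well above background on no control array. They carry close numbers on the array, but no stretch of 20 bases links them, so nothing is in capitals.
ECB_Gut 11118: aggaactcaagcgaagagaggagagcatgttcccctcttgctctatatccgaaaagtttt
ECB_Gut 11119: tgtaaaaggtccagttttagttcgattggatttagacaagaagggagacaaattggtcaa
ECB_Gut 11122: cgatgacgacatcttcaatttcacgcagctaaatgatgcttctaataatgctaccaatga

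ECB_Gut 3268, ECB_Gut 6099, ECB_Gut 4833 and ECB_Gut 10557 stand for the 4 groups in which probes held AATAAA, the hexamer known in animal transcripts as the poly(A) signal, here in capitals.
ECB_Gut 3268: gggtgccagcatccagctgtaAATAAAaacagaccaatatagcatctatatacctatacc
ECB_Gut 6099: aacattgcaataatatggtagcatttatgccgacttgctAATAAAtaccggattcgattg
ECB_Gut 4833: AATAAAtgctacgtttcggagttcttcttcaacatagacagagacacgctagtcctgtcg
ECB_Gut 10557: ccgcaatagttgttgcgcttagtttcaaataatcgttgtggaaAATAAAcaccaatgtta

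ECB_Gut 9958 and ECB_Gut 9968 belong to the largest group, and capitals mark the 35 bases they share. ECB_Gut 1228 opens the group with the highest signal on protoxin. ECB_Gut 10250 and ECB_Gut 10252 share the 20 capital bases, and the latter is the chosen probe poorest in G and C.
ECB_Gut 9958: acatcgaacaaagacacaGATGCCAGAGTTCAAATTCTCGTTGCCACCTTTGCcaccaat
ECB_Gut 9968: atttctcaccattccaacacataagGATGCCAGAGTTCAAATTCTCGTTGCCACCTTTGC
ECB_Gut 1228: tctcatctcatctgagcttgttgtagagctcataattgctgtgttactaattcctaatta
ECB_Gut 10250: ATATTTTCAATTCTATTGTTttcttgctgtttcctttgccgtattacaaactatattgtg
ECB_Gut 10252: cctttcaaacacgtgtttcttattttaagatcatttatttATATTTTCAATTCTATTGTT

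ECB_Gut 2281 and ECB_Gut 2272 were each alone, with no probe linked to them.
ECB_Gut 2281: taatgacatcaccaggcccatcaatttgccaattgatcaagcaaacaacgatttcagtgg
ECB_Gut 2272: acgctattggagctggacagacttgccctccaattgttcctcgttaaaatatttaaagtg

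The last 4 sequences are probes that share bases but differ in whether they met the rule. ECB_Gut 7397 and ECB_Gut 1166 met the rule, while ECB_Gut 7393, which shares the 48 capital bases with the former, and ECB_Gut 1167, which shares the 30 capital bases with the latter, did not.
ECB_Gut 7393: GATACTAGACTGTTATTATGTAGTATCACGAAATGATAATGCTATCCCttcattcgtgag
ECB_Gut 7397: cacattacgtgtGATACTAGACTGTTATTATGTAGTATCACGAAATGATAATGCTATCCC
ECB_Gut 1166: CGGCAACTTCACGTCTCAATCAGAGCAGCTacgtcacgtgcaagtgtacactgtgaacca
ECB_Gut 1167: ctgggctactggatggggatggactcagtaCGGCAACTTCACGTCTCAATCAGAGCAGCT

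Signals are given below as levels, the log2 of the processed signal relative to the 75th percentile of the gut probes on the same array. A level of 0 is that percentile, 1 is a signal of 2 times it, and -8.74 is the floor, where the scaled signal was set to 1. The level at which the scanner software called a probe well above background began between -7.02 and -6.35, depending on the array. Across the 6 arrays, 9859 to 10389 gut probes (76.0 to 80.1%) were well above background, none were saturated, and all arrays shared 1 scan time. None of the 143 probes had an outlier spot.

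All 143 probes were well above background on the 3 protoxin arrays. On the control arrays, 113 of them (79.0%) were so on all 3, 4 on 2, 20 on 1 and 6 on none. Of all gut probes, 74.6% were well above background on all 3 control arrays. There were 14 gut probes that were so on 0 control and 3 protoxin arrays, and 35 on 3 control and 0 protoxin arrays. The median level of the 143 probes was -3.12 on the control diet and -0.40 on protoxin, against -2.72 and -2.63 over all gut probes. The probes thus moved from a median percentile of 46.1 of all gut probes to one of 71.9. Their differences had quartiles of 1.84 and 3.13, while the median difference of all gut probes was 0.08.

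By size, 12 of the 53 groups had a difference of 3 or more, 21 lay between 2 and 3 and 20 were under 2. By level, 27 groups stayed below the 75th percentile in all 6 pools, 6 stayed above it in all 6, and 9 were below it in every control pool and above it in every protoxin pool. In limma, 66 of the 143 probes (46.2%) were called higher on protoxin at an adjusted p below 0.05 and a 2-fold change, where 1.34% of all 12955 tested gut probes were called. Since the same contrast chose the probes, nothing is read from this share. The count rests on every pool, and it lay between 0, without protoxin replicate 3, and 43, without control replicate 1, when 1 pool was left out. It was 3 without protoxin replicate 1, 2 without protoxin replicate 2, 18 without control replicate 2 and 40 without control replicate 3. Calls over all gut probes fell too, to 4, 2, 30 and 57 in that order. They were 0 without protoxin replicate 3 and 83 without control replicate 1. The share of gut probes whose protoxin pools all lay above all control pools was 13.9%, which every chosen probe met by the rule.

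In 4 groups no control array measured the signal well above background, and these were among the 7 with the largest differences. For them the rise is given as a bound, the protoxin mean over the mean of the lowest well-measured level of each control array. Where the probe's own level was higher, that level was used. The lowest well-measured level is not a sharp limit. It was -6.8 in control replicate 2, where ECB_Gut 11315 at -6.41 was not well above background. The bounds hold only for signals processed in this way, and other treatments of low signals, given below, gave smaller rises. The ECB_Gut 4493 pair had mean levels of -8.54, -7.81 and -7.67 in control replicates 1, 2 and 3, and of -3.72, -0.31 and -0.44 in protoxin replicates 1, 2 and 3. Averaged over both probes on the log2 scale, its signal on protoxin was at least 41.5-fold higher. The bound was 62.8-fold for ECB_Gut 4493 and 27.4-fold for ECB_Gut 4494. The pair had a measured control mean of -8.01 ± 0.47 and a protoxin mean of -1.49 ± 1.93 (SD, n = 3). On the mean of both probes, protoxin replicate 1 lay 3.40 below protoxin replicate 2, yet 3.95 above the highest control pool.

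ECB_Gut 11118 had levels of -8.74, -8.58 and -8.74 on the control diet and of -4.05, -2.41 and -4.24 on protoxin, at least 10.3-fold higher. ECB_Gut 11122 had levels of -8.08, -8.63 and -7.99 against -4.03, -2.63 and -3.37, at least 12-fold higher. For ECB_Gut 11119 the levels were -8.40, -8.66 and -8.74 against -4.64, -2.66 and -4.01, at least 8.96-fold higher. In all 3 probes protoxin replicate 2 was the highest pool. The probes numbered between them, ECB_Gut 11120 and ECB_Gut 11121, were also well above background on no control array. They were highest in protoxin replicate 2, with protoxin levels of -5.57, -3.59 and -3.75 and of -6.93, -4.20 and -6.10. Their protoxin means of -4.30 and -5.74 were under the level the rule asked for, and the second of them was well above background on 1 protoxin array.

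A further 3 large rises rested on control arrays of which only control replicate 1 was well above background. The 5 probes of the ECB_Gut 6099 group had mean levels of -2.11, -6.71 and -8.09 on the control diet and of -0.70, -0.60 and -0.12 on protoxin. The protoxin pools lay within 0.58 of each other, while control replicate 1 was 1.41 below the lowest of them and far above the other control pools. The difference of means was 5.16 with an SE over pools of 1.82, and for the first probe of the group it was 6.91 without control replicate 1 and 3.85 without control replicate 3.

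The ECB_Gut 4831 group, also of 5 probes, had levels of -5.98, -7.36 and -8.74 against -2.18, -2.35 and -2.45, a difference of 5.03 with an SE of 0.80. The ECB_Gut 9958 group had levels of -6.04, -7.40 and -8.30 against -2.77, -3.95 and -4.34, a difference of 3.56 with an SE of 0.81. In 8 of its 9 chosen probes control replicate 1 was well above background, and in 0 of them another control pool was. So in these 3 groups the control pools spread by 2.26 to 5.99 between the highest and the lowest. That spread ran over values partly not well above background, whose order is not read.

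The measured differences of these dim groups depended on the treatment of low signals. With scaled signals under 16 set to 16, the difference was 3.25 for the ECB_Gut 4493 pair, 2.41 for the ECB_Gut 4831 group and 1.05 for the ECB_Gut 9958 group, and 0.97 to 1.39 for ECB_Gut 11118, ECB_Gut 11119 and ECB_Gut 11122. After normexp background correction with an offset of 50, the ECB_Gut 4493 pair had 2.10, the ECB_Gut 6099 group 2.33, the ECB_Gut 4831 group 1.50 and the ECB_Gut 9958 group 0.86, and the other 3 had 0.90 to 1.03. All stayed higher on protoxin. For the ECB_Gut 4493 pair, ECB_Gut 11118, ECB_Gut 11119 and ECB_Gut 11122, these values lay under the bounds given above. On the log2 scale those bounds were 5.37 for the pair and 3.16 to 3.59 for the other probes.

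Control replicate 2 stood apart in the ECB_Gut 3268 group, in which all 6 arrays measured its 5 probes above background. Its levels were -5.19, -0.74 and -4.56 on the control diet and 2.29, 2.89 and 1.80 on protoxin, which is a difference of 5.82 with an SE of 1.43, or 56.6-fold. The lowest protoxin pool was 2.54 above control replicate 2, and the other control pools were far lower. In the first probe of the group, ECB_Gut 3268, the difference was 7.12 without control replicate 2 and 4.99 without control replicate 1. In percentiles of all gut probes the group went from 42.2 on the control diet to 88.9 on protoxin.

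The ECB_Gut 4174 group had levels of -1.84, -0.64 and -2.66 against 2.80, 1.07 and 1.50, an 11.3-fold difference. ECB_Gut 1742 opened a group with levels of -2.21, -1.39 and -2.44 against 1.82, -0.28 and 1.44, an 8.06-fold difference. In both groups protoxin replicate 1 was the highest protoxin pool and protoxin replicate 2 the lowest. ECB_Gut 2281 had levels of -0.42, 0.24 and -0.28 against 3.38, 2.16 and 3.43, an 8.83-fold difference, and again its lowest protoxin pool was replicate 2. Its neighbors in number shared no 20 bases with it and differed by 0.20 (ECB_Gut 2280) and -0.27 (ECB_Gut 2282).

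The probe ECB_Gut 1219, the 1 chosen probe of the ECB_Gut 1218 pair, had levels of -8.74, -7.97 and -5.28 against -3.09, -3.64 and -5.27. Only control replicate 3 was well above background, and it was 0.01 below protoxin replicate 3, so this probe only just met the rule. Its pair, ECB_Gut 1218, had levels of -8.74, -6.51 and -4.08 against -2.55, -2.92 and -5.01, and its diets overlapped. ECB_Gut 5861, alone in its group, met the rule as narrowly, at -8.74, -5.24 and -4.46 against -3.60, -4.46 and -3.07.

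The 6 groups that lay above the 75th percentile in all 6 pools had differences of 1.64 to 2.74. The ECB_Gut 1228 group had levels of 2.02, 1.80 and 1.31 against 4.30, 4.29 and 3.69, a signal of 3.27 times the 75th percentile on the control diet and of 17.0 times it on protoxin. Its difference was 2.39 with an SE of 0.29, and its 4 probes agreed within 0.08. ECB_Gut 1232, next in number with no linking stretch, had levels of 0.83, 0.66 and 0.16 against 3.04, 2.91 and 2.49, in the same order of pools on the control diet.

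The 5 probes of the ECB_Gut 3914 group had mean levels of 0.56, 1.96 and 0.44 against 4.05, 3.37 and 3.76, a 6.69-fold difference, with control replicate 2 high. For the ECB_Gut 10557 group the levels were 1.82, 1.91 and 0.78 against 3.18, 3.82 and 3.25, a 3.77-fold difference. ECB_Gut 12884, the 1 chosen probe of the ECB_Gut 12882 group, had levels of 2.19, 2.63 and 1.46 against 3.82, 3.90 and 3.50. Its 4 sister probes had differences of 1.24 to 1.56, just short of the rule. ECB_Gut 2677 had levels of 1.28, 1.03 and 1.76 against 3.04, 3.11 and 2.88, and the other probe of its pair, ECB_Gut 2678, missed the rule with a difference of 1.55.

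At the other end, the lowest group means on protoxin after that of ECB_Gut 1219 were those of ECB_Gut 11315 and of ECB_Gut 11119, described above. Some single probes of larger groups lay lower, such as ECB_Gut 12415 with a protoxin mean of -3.98. ECB_Gut 11315 had levels of -5.76, -6.41 and -5.88 against -3.67, -3.24 and -4.43, with control replicate 2 not well above background. The difference was 2.24 with an SE of 0.40.

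Some neighbors in number moved together without sharing a linking stretch, which was described after their values were seen. Of all pairs of gut probes with consecutive numbers, 59.0% were in 1 overlap group. The 143 probes formed 45 runs of consecutive numbers, of which 21 held 5 probes and 17 held 1, and 6 runs joined more than 1 overlap group. ECB_Gut 1667 to ECB_Gut 1671 were 5 such probes, with at most 7 bases shared between one and the next and differences of 1.75 to 2.02. The mean levels of this run were -0.62, -0.54 and -1.93 on the control diet and 0.86, 1.00 and 0.91 on protoxin, and control replicate 3 was the lowest pool in all 5 probes.

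In the run from ECB_Gut 11315 to ECB_Gut 11319 the differences were 1.93 to 2.25, and protoxin replicate 2 was the highest and protoxin replicate 3 the lowest of the protoxin pools in every probe. The run from ECB_Gut 10249 to ECB_Gut 10253 had differences of 1.98 to 2.43, at protoxin means between -3.34 and 2.30. The dimmest of its probes, ECB_Gut 10252, holds 21.7% of G and C, the lowest share among the chosen probes, and lay at -5.74, -6.08 and -5.50 against -3.51, -2.90 and -3.61. ECB_Gut 10250, which shares its capital bases, lay at 0.42, -0.04 and 0.59 against 2.21, 2.52 and 2.18. Their differences were 2.43 and 1.98.

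Probes of a group mostly repeated the same measurement. In 20 of the 33 groups with more than 1 probe, all probes met the rule, 93 in all. In the 16 groups with 5 chosen probes, each probe shared 52 to 59 of its 60 bases with the next, so they are near copies and not separate evidence. Their differences had a median SD between probes of 0.06, against a median SE over the pools of 0.54. The spread that matters is thus the one between pools. The largest range within a group was 1.15, in the ECB_Gut 9958 group, where it touches control values not well above background.

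In 13 groups some probes failed the rule, 28 probes in all. All 28 had a higher mean on protoxin, 25 without overlap, with differences from 0.31 to 3.26 and a median of 1.44. Of these, 22 only fell short of the difference, 2 fell short and overlapped, 3 were too dim and 1 overlapped. In 3 groups the gap between a chosen and a left-out probe was widest, and there some of the measured spots did not repeat each other.

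ECB_Gut 7397 had levels of -0.18, -4.32 and -0.24 on the control diet and of -0.03, 0.03 and 0.22 on protoxin. Its difference of 1.65 fell to 0.29 without control replicate 2. ECB_Gut 7393 lay at -0.30, -0.69 and -0.30 against -0.08, 0.03 and 0.19, and the 4 sister probes had differences of 0.48 to 0.56, so the low value was 1 spot of 1 array, which carried no outlier flag.

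ECB_Gut 5171 had levels of -1.20, -2.66 and 0.13 against 1.66, 1.27 and 1.17, a difference of 2.61. Its sisters ECB_Gut 5172 to ECB_Gut 5175 had differences of 1.37 to 1.45, and ECB_Gut 5172 lay at 0.43, 0.72 and 0.88 against 2.25, 1.88 and 2.00. ECB_Gut 1166 had levels of -3.68, -3.03 and -4.48 against -2.24, -1.60 and -2.53. The linked ECB_Gut 1167 lay at 1.42, 1.86 and 1.26 against 1.75, 1.60 and 2.10, and its diets overlapped. ECB_Gut 1163 to ECB_Gut 1165, the numbers before it, had differences of 1.66 to 1.90 and the same order of control pools as ECB_Gut 1166.

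Across the 53 groups, the highest protoxin pool was replicate 2 in 34, replicate 1 in 13 and replicate 3 in 6, and the lowest was replicate 3 in 32. On the control diet, replicates 1 and 2 were each the highest in 20 groups and replicate 3 in 13, and replicate 3 was the lowest in 27. The order of pools over all gut probes was not counted. Unlinked neighbors count separately here, such as ECB_Gut 1667 to ECB_Gut 1671 as 5 groups, so groups may repeat each other. The control SD was above the protoxin SD in 35 groups (66.0%), with medians of 0.63 and 0.44. The same held for 62.0% of all gut probes, with medians of 0.31 and 0.22. The control pools spanned more than 2 in 12 groups and the protoxin pools in 5.

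The widest span on protoxin was that of ECB_Gut 2272, singled out after its values were seen. It had levels of -2.72, -2.40 and -2.29 against -0.89, 2.96 and -2.21, so that protoxin replicate 2 carried the rise and protoxin replicate 3 lay 0.08 above the highest control pool. Without protoxin replicate 2 its difference was 0.92. ECB_Gut 3343, by contrast, had the narrowest control span, with group levels of -1.68, -1.70 and -1.66 against 1.05, 1.20 and 0.33.

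When 1 pool at a time was left out of the deposited values, 92 of the 143 probes kept a difference of 1.585 or more each time, and in 28 groups all chosen probes did. The other 51 fell under it without one pool or another, most of them without protoxin replicate 2 (27 probes in 13 groups), control replicate 2 (25 in 10) or control replicate 3 (18 in 14). A difference under 1 was left in 3 probes, ECB_Gut 2272, ECB_Gut 7397 and ECB_Gut 6512. Each sample label begins with a pair of numbers that also ends the array's identifier in the scanner header, on all 6 arrays, where Agilent software writes the array's position on its slide. The first of these numbers was 1 for 3 pools and 2 for the other 3. The median difference over the 143 probes was 2.39 among the pools with 1 (2 control, 1 protoxin) and 2.80 among those with 2 (1 control, 2 protoxin). Every probe was higher on protoxin in both sets of pools, which the rule fixes, since it asks that the pools of the diets do not overlap, so nothing about position is read from these values.

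Just inside the threshold were ECB_Gut 6512, ECB_Gut 12413 and ECB_Gut 3489, with differences of 1.588, 1.590 and 1.592 in the deposited values. Just outside it were ECB_Gut 4312, ECB_Gut 4309 and ECB_Gut 2680, with 1.577, 1.576 and 1.570. The levels of these probes differed widely, from ECB_Gut 12413, at -4.94, -5.51 and -4.46 against -3.71, -2.49 and -3.94, to ECB_Gut 2680, at 0.94, 0.86 and 1.47 against 2.49, 2.82 and 2.67.

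The rule did not use base composition. The chosen probes held a median of 36.7% of G and C (quartiles 35.0 and 41.7), and all gut probes a median of 40.0% (35.0 and 45.0). With only the first chosen probe of each group counted, the median was again 36.7%. No forward reading frame was free of stop codons in 37.1% of the chosen probes, against 22.4% of all gut probes, and in 30.2% of first chosen probes against 19.8% of the first probes of all groups. The 77 probes that fell by the mirrored rule had a median of 41.7% and lacked a stop-free frame in 16.9%.

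AATAAA was found on the printed strand of 18 of the 143 probes (12.6%), against 8.19% of all gut probes. Its reverse complement TTTATT was found in 9.09% and 5.30%. All 18 were in the 4 groups shown above, with all 5 probes of the ECB_Gut 3268, ECB_Gut 6099 and ECB_Gut 10557 groups and 3 of 5 of the ECB_Gut 4831 group. Counted once per group, by the first chosen probe, the share was 5.66%, against 6.69% of the first probes of all groups. That count depends on the probe taken, since the first probe of the ECB_Gut 4831 group lacked AATAAA. Why the share over single probes was higher was not tested. The 143 sequences were all distinct, and 0 of them shared 20 bases with the opposite strand of another probe, as 219 of all gut probes (1.69%) did.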

How the data were processed

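Expression was compared between 3 control and 3 protoxin pools, grouped by the sample labels. The deposited scanner output holds spot intensity on a linear scale, as Agilent Feature Extraction 9.5 gave it per the labels, after background subtraction and detrending. A table that the authors deposited from GeneSpring holds log2 values of that signal, with a floor of 1, after a 75th percentile shift. Detection calls in 12 table columns were left aside. The rule was applied to the deposited log2 values. For all other values, the processed signal of the 12972 gut probes was scaled to a common 75th percentile of 426.7, set to 1 where below 1 and converted to log2, with outlier spots left out. Above the floor the results were within 0.015 of the deposited values. A probe's own hybridization sets its brightness, so levels of different probes do not rank transcripts.

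Differences were fitted with limma 3.58.1 in R 4.3.3 over all gut probes, two-sided, with Benjamini-Hochberg adjustment, and probes were called at an adjusted p below 0.05 and a 2-fold change. The fit was tested on simulated arrays. Probe overlaps and sequence counts were made with Python 3.11.15. The precision is limited by the 3 arrays per diet.

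The probes, the rule and the lists were chosen with earlier results of these data known. The groups named were the 12 with the largest difference, the 6 with the highest and the 3 with the lowest protoxin level, the 3 probes on either side of the threshold and the 3 groups with the widest gap between a chosen and a left-out probe. Groups named beyond these are said to be chosen after their values were seen, or illustrate a run, a count or a sequence set. Pathway and marker lists could not be applied, since the files pair probes with no gene and the reference table used here, of another assembly, holds no sequences. Alternatives in background correction, normalization, floor, filter, test, block and overlap were tried, and each pool was left out in turn.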

Additional observations from a re-analysis of the deposited data

How the results depend on the processing

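The median difference over the 143 probes was between 2.23 and 2.51 when 1 pool was left out and moved by less than the pools' median SD of 0.65 in 14 of 15 alternatives. It was 1.55 after normexp background correction, where 70 probes met the rule. Without a shift between arrays 99 met it, 98 of them among the 143. Without 1 pool, 132 to 187 probes met it, but not the same ones: 112 of the 132 without protoxin replicate 2, 118 of the 143 without control replicate 2 and 141 of the 187 without control replicate 1 were among the 143, so that 20, 25 and 46 were others. Linking by 15 or 25 shared bases left the same 143. Of 315 alternative values of the 21 named groups, 0 changed sign, and 19 moved by more than the pools' SD, all but 1 of them (ECB_Gut 2677 without a shift between arrays, 1.34) under normexp correction or the floor at 16, which raise the low control signals.

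The number of calls depended on the setting. Among the 143 probes limma called 66, and among all gut probes 173 higher and 144 lower (54.6% higher). It called 101 of the 143 and 225 of all higher after normexp correction, where 68.0% of calls were higher. It called 110 of the 143 and 289 of all when probes not well above background on all 3 arrays of at least 1 diet were left out, 13 and 41 with the floor at 16, and 0 and 0 with no shift between arrays. The methods' one-way test gave 126 and 449 without correction and 0 and 0 after Benjamini-Hochberg adjustment. With a replicate block, limma called 0 of the 143 and 0 of all. Deviations of same-numbered pools correlated at -0.0457, -0.0227 and -0.0685. With 3 pools per diet, these values cannot decide whether the replicate numbers pair the pools. With a block for the first number of the label it called 39 and 41. Without 1 pool it called 0 to 43 of the 143 and 0 to 83 of all. By unadjusted p at the same limits, limma had 140 of the 143 probes and 634 of all gut probes. These counts were 139 and 598 with the replicate block, 136 and 588 without protoxin replicate 3, and 124 and 247 without a shift. Since the same contrast chose the probes, nothing is read from the counts among the 143. The median difference of all gut probes was 0.08, and it moved to 0.22 after normexp correction and to -0.21 without a shift. The causes were not tested. Counting the first chosen probe of each group in place of every probe, an alternative added after the data were seen, gave 5.66% with AATAAA.

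Of the 143 probes, 30 were not well above background on all control arrays, and there the size of the rise is limited by background, not measured.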
